A study of Homo sapiens with 18 samples.

Results

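A set of Wnt signalling genes, namely the beta-catenin gene CTNNB1, AXIN2, LEF1, the ligand genes WNT5A, WNT5B, WNT7A and WNT10A, and the antagonist genes SFRP1, DKK1 and DKK3, were followed through 18 RNA sequencing libraries of the MCF10 breast cancer progression model. They were taken by symbol, 10 of the 35933 genes with values, and each symbol matched 1 gene. MCF10A is a spontaneously immortalized, non-tumorigenic human breast epithelial line, MCF10AT1 was made from it by stable integration of a mutated HRas, and MCF10CA1h came from serial mouse xenografts of that transformed line. Each line was sequenced as a negative CRISPR control and as a line labelled METTL3 knockdown, in 3 replicates each named a, b and c, which gave 6 groups. METTL3 is the catalytic subunit of the enzyme that writes N6-methyladenosine into mRNA. The knockdown lines were made by transient CRISPR/Cas9 transfection against exon 1 of METTL3, sorting of transfected cells and clonal selection, while all 6 groups carried the CRISPR procedure. RNA came from a single CRISPR line per group, so the effect of METTL3 and that of the clone cannot be told apart. The labels do not say that the replicates were separate cultures, and the p-values then measure the spread between these libraries, which may be technical.

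Wnt proteins are secreted ligands that bind Frizzled receptors, alone or with the LRP5 and LRP6 co-receptors. Without a ligand, a destruction complex built on AXIN proteins marks beta-catenin for degradation, and with one, beta-catenin accumulates and acts with the TCF and LEF proteins at target genes. In breast tissue the pathway is known for its part in ductal development and in stem cell maintenance, and secreted antagonists such as SFRP1 and DKK1 hold it back outside the cell. The data here are RNA levels and carry no measure of beta-catenin protein or of its place in the cell.

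Values are the deposited normalized counts, which summed to between 21347352 and 31681834 per library over all genes. A fold change is given on the log2 scale of the normalized count plus 1, with its standard error, n = 3 per group, and the adjusted p is the two-sided one from limma over all genes of that fit. A gene was tested in a line where its mean over the 6 libraries was at least 10, and it was called at an adjusted p under 0.05. The RNA of METTL3 (ENSG00000165819) was read beside the labels. Its normalized counts were 752, 686 and 459 in the MCF10A controls and 939, 981 and 510 in the labelled knockdown, where the RNA was not lower (log2 fold change 0.33 ± 0.30, adjusted p = 0.618 from limma, exact permutation p = 0.3). In MCF10AT1 they were 968, 1016 and 805 against 816, 752 and 902 (-0.17 ± 0.26, adjusted p = 0.707 from limma, exact permutation p = 0.3). Only the MCF10CA1h groups did not overlap, with 1022, 1102 and 1280 against 825, 745 and 843 (-0.49 ± 0.12, adjusted p = 0.0234 from limma), and the exact permutation p of 0.1 is the smallest that 3 libraries against 3 allow. That call ended without control c (adjusted p = 0.0906) and without knockdown library b (0.0854). METTL3 protein is not measured in these data, so the RNA values do not test the labels, and the groups are named here by their label throughout.

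Upstream sequences are shown for 3 members, WNT5A and WNT7A as the ligand genes with the largest changes, and DKK1 as an antagonist that is itself a known target of the pathway. RefSeq promoter windows of GRCh38.p14 were matched for 7 of the 10 members, with 9 windows in all, and the 250 bases before each start were searched on both strands for CTTTGA and CTTTGT, the core letters that TCF and LEF proteins are known to prefer. The DKK1 window, at chr10:52314031-52314280 on the plus strand, held 3 matches, set in capitals, which begin 149, 95 and 76 bases upstream of the start. WNT5A had another window, at chr3:55487307-55487556, that overlaps an exon of the gene. That window held no match and is not printed. The window of WNT7A, at chr3:13880072-13880321 on the minus strand, and the printed one of WNT5A, at chr3:55481399-55481648 on the minus strand, held none. All are read 5′ to 3′ on the strand of the gene.
DKK1: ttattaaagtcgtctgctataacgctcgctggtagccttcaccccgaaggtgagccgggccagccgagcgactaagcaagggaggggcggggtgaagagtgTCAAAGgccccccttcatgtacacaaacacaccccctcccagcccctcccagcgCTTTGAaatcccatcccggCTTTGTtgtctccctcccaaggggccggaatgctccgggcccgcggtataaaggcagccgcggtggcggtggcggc
WNT7A: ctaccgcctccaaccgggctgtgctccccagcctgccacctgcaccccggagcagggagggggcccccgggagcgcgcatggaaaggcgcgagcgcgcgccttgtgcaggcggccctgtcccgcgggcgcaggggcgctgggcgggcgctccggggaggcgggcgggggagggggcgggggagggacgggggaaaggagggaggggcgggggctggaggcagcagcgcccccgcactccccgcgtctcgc
WNT5A: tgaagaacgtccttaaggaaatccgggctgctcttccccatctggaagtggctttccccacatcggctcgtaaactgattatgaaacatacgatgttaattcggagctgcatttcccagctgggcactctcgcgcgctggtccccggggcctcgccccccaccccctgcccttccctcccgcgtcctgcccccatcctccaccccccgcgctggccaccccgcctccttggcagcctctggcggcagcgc
Of all 35116 windows of this length, 22.8% held at least 1 match and 0.58% held at least 3. Among the members with a window, DKK1 alone had a match. The window of LEF1, another known target, overlaps an exon of the gene and held none. AXIN2, SFRP1 and DKK3 had no window and were not searched. A match describes letters and is not a bound site, and no binding was measured.

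**Figure D1:**
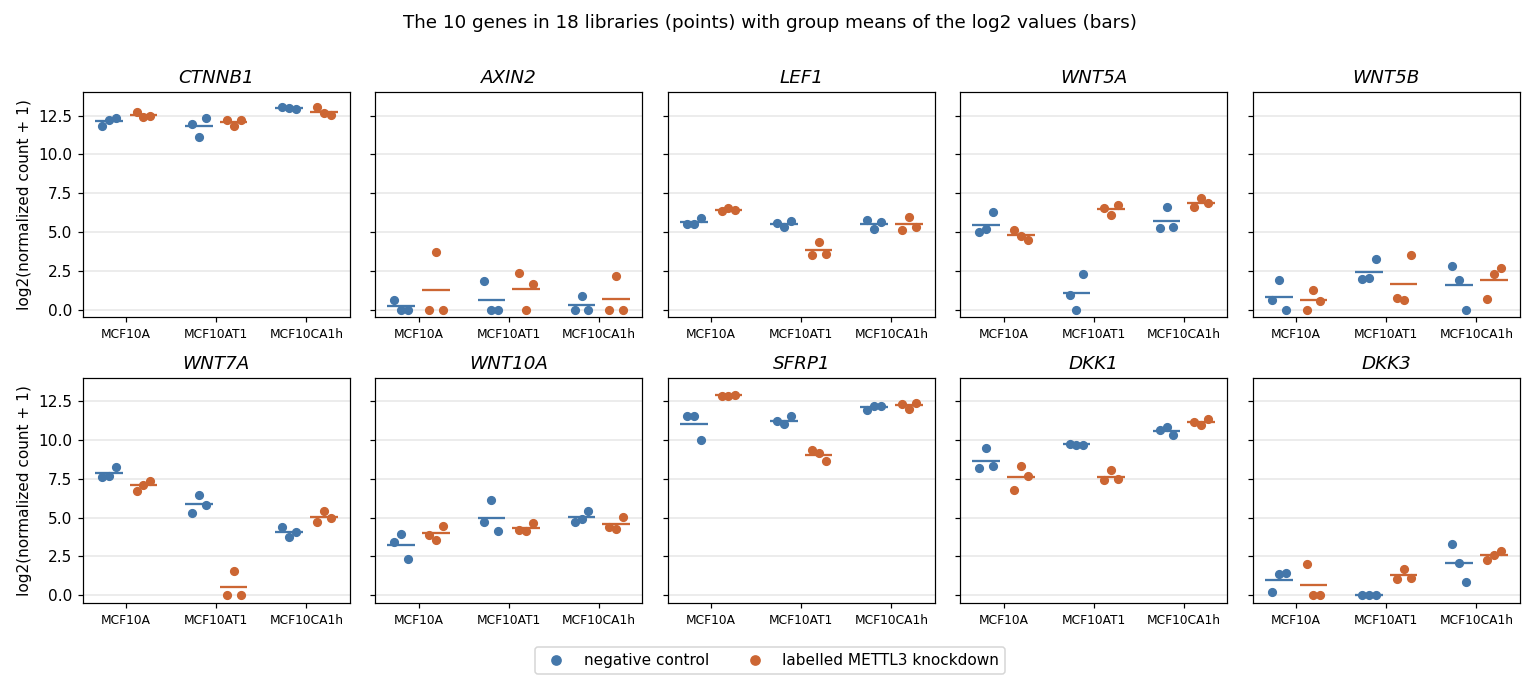
Each panel shows 1 gene, with the log2 of the normalized count plus 1 of each library as a point, in blue for the negative control and in orange for the labelled METTL3 knockdown, and the group mean of those values as a bar. WNT5A lies near 0 in the MCF10AT1 controls and WNT7A near 0 in the labelled knockdown of the same line, while AXIN2, WNT5B and DKK3 stay low throughout.

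CTNNB1 (ENSG00000168036, hg38 chr3:41194741-41260096, plus strand) encodes beta-catenin, the transducer of the canonical pathway and also a partner of cadherins at adherens junctions. Its RNA was present in every library, from 2272 to 8497, and no change between the arms of any line passed the test. In MCF10A the controls held 3664, 4815 and 5129 and the labelled knockdown 6731, 5521 and 5702. The knockdown libraries lay above the controls without overlap, by 0.41 ± 0.17 on the log2 scale (adjusted p = 0.253 from limma). In MCF10AT1 the values were 4065, 2272 and 5299 against 4731, 3662 and 4666, and the groups overlapped (0.24 ± 0.35, adjusted p = 0.698). In MCF10CA1h they were 8497, 8102 and 7663 against 8342, 6626 and 5826, again with overlap (-0.24 ± 0.13, adjusted p = 0.251). Without knockdown library a of MCF10CA1h, a fall of 0.38 passed the test (adjusted p = 0.0475).

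LEF1 (ENSG00000138795, hg38 chr4:108047545-108168956, minus strand) encodes a DNA-binding partner of beta-catenin and is itself a known target of the pathway. The controls of the 3 lines held 35.4 to 57.6. In the MCF10A arm labelled knockdown it read 80.0, 94.4 and 85.0, against 44.3, 45.5 and 57.6 in the controls, and the MCF10AT1 arm read 10.4, 19.6 and 11.1 against 46.2, 38.1 and 51.0. The groups thus did not overlap in either line, above the controls in MCF10A and below them in MCF10AT1. Neither difference passed the test within its line (0.81 ± 0.28, adjusted p = 0.170, and -1.69 ± 0.52, adjusted p = 0.0714, from limma). The second did without the intensity trend (adjusted p = 0.0244) and in the fit of 18 libraries (adjusted p = 0.000862). In MCF10CA1h, 53.8, 35.4 and 49.4 stood against 34.1, 62.7 and 39.5, with overlap (-0.05 ± 0.32, adjusted p = 0.935). An antisense gene, LEF1-AS1, overlaps exons of LEF1 and held at most 24.9 in any library. Whether the counting used the strand of the reads is not given in the sources used here.

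AXIN2 (ENSG00000168646, hg38 chr17:65528563-65561648, minus strand) encodes a scaffold of the destruction complex and is a widely used readout of beta-catenin activity. It was listed at 0 in 11 of 18 libraries and reached 12.2 at most, in knockdown library b of MCF10A. Its mean stayed under 10 in each line, so it was not tested. No difference could be read at this level, and a low AXIN2 value does not measure the pathway.

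Among the tested members the ligand genes held the largest changes between arms, and these lay in MCF10AT1. WNT5A (ENSG00000114251, hg38 chr3:55465715-55490539, minus strand) encodes a ligand known mainly for beta-catenin-independent signalling and cell movement. The MCF10AT1 controls held 0.88, 0 and 3.97 and the labelled knockdown held 93.5, 66.9 and 104. It rose by 5.38 ± 0.74 on the log2 scale (adjusted p = 0.00228 from limma), and it passed the filter on low values only through the group where it was high. The size depends on the pseudocount and was 5.91 with 0.5 and 3.84 with 5. In MCF10CA1h, 37.6, 94.5 and 39.0 stood against 96.1, 144 and 114. The knockdown libraries lay above the controls, the nearest pair being 94.5 and 96.1, and the difference missed the threshold (1.15 ± 0.35, adjusted p = 0.0592). Without control b of that line it passed, with 1.58 and an adjusted p of 0.00734. In MCF10A, 30.4, 35.9 and 76.1 stood against 33.5, 25.5 and 21.8, with overlap (-0.70 ± 0.43, adjusted p = 0.444).

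WNT7A (ENSG00000154764, hg38 chr3:13816258-13880071, minus strand) encodes a ligand known from limb patterning and the female reproductive tract. Its MCF10AT1 values went the other way from those of WNT5A, with 37.8, 87.0 and 55.3 in the controls and 0, 1.93 and 0 in the labelled knockdown. It fell by 5.33 ± 0.75 on the log2 scale (adjusted p = 0.00258 from limma), or by 6.08 and 3.47 with pseudocounts of 0.5 and 5, and it passed the filter only through the controls. MCF10A held 198, 208 and 310 against 105, 138 and 165, all knockdown libraries below all controls (-0.80 ± 0.28, adjusted p = 0.172). MCF10CA1h held 20.3, 12.2 and 15.6 against 25.7, 41.6 and 30.04, all knockdown libraries above all controls (0.97 ± 0.37, adjusted p = 0.115). The groups of WNT7A therefore did not overlap in any line, and only the MCF10AT1 difference passed the test.

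WNT10A (ENSG00000135925, hg38 chr2:218880852-218899581, plus strand), a ligand of the canonical pathway with known roles in teeth, hair and skin, overlapped between arms in every line. Its MCF10A values were 9.58, 14.1 and 3.96 against 13.9, 10.8 and 21.02 (0.76 ± 0.56, adjusted p = 0.524), and it passed the filter there only through the labelled knockdown. In MCF10AT1 they were 25.5, 70.3 and 16.4 against 17.4, 16.7 and 23.9 (-0.67 ± 0.65, adjusted p = 0.546), where control b stood far above the other libraries. In MCF10CA1h they were 25.6, 28.9 and 41.7 against 19.8, 18.6 and 31.2 (-0.46 ± 0.36, adjusted p = 0.445). WNT5B (ENSG00000111186, hg38 chr12:1529891-1647212, plus strand), the close relative of WNT5A, was under 1 in 8 of 18 libraries and reached 10.5 at most, in knockdown library c of MCF10AT1. It was not tested in any line.

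The antagonist genes SFRP1 and DKK1 both fell in MCF10AT1, and 1 of them rose in each of the other lines. SFRP1 (ENSG00000104332, on chromosome 8, minus strand) encodes a secreted Frizzled-related protein that binds Wnt ligands. In MCF10AT1 the controls held 2368, 2043 and 2933 and the labelled knockdown 663, 562 and 402. It fell by 2.19 ± 0.30 on the log2 scale (adjusted p = 0.00212 from limma). In MCF10A, 2997, 2946 and 1015 stood against 7404, 7272 and 7742, with control c well under the other controls. The knockdown libraries lay close together and above all controls, and SFRP1 rose by 1.85 ± 0.38 (adjusted p = 0.0475). Without control c the rise was 1.33 (adjusted p = 0.0164). The call ended without control b (adjusted p = 0.0820) and without knockdown library a, b or c (adjusted p = 0.160, 0.126 and 0.157). In MCF10CA1h, 3897, 4577 and 4678 overlapped with 5105, 4025 and 5399 (0.14 ± 0.13, adjusted p = 0.524).

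DKK1 (ENSG00000107984, hg38 chr10:52314281-52318042, plus strand) encodes a secreted inhibitor that binds the LRP co-receptors and is a known target of the pathway. Its promoter window is the one printed above with 3 matches. In MCF10AT1 the controls held 865, 817 and 831, the labelled knockdown 168, 262 and 178, and DKK1 fell by 2.07 ± 0.30 on the log2 scale (adjusted p = 0.00292 from limma). The opposite order held in MCF10CA1h, with 1575, 1841 and 1279 against 2289, 2019 and 2639, and a rise of 0.57 ± 0.15 (adjusted p = 0.0298). That call ended without control a or c (adjusted p = 0.0836 and 0.0940) and without knockdown library a or c (0.0603 and 0.1001). In MCF10A, 288, 705 and 321 stood against 108, 326 and 205, which overlap, and the difference of -1.05 ± 0.46 missed the threshold (adjusted p = 0.275). Libraries of the same letter deviated together in that line, and with the replicate letter as a block DKK1 fell there (adjusted p = 0.0299). The antisense gene PRKG1-AS1 overlaps DKK1 and held 4.96 to 28.8. DKK3 (ENSG00000050165, hg38 chr11:11956207-12009769, minus strand), a divergent member of the Dickkopf family, reached 8.98 at most, was listed at 0 in the 3 MCF10AT1 controls and was not tested in any line.

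Of the 10 genes, 7 passed the filter in every line and 3 did not. Among those 7, 1 was called in MCF10A, where 2.65% of all 15416 tested genes were called. An unadjusted p under 0.05 from limma held for 4, but the share of all genes at that threshold was not counted. In MCF10AT1, 4 of 7 were called against 13.0% of all tested genes, and the 2 ligands among them passed the filter through 1 arm alone. With the replicate letter as a block the same 4 were called there, against 24.5% of all tested genes. In MCF10CA1h, 1 of 7 was called against 12.8%. The groups did not overlap for 4, 5 and 3 of the 7 in MCF10A, MCF10AT1 and MCF10CA1h, where 23.9%, 32.8% and 32.7% of all tested genes did not overlap. The median log2 fold change over the 7 was 0.41, -1.69 and 0.14, and over all tested genes it was -0.00, 0.02 and -0.02.

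**Figure D2:**
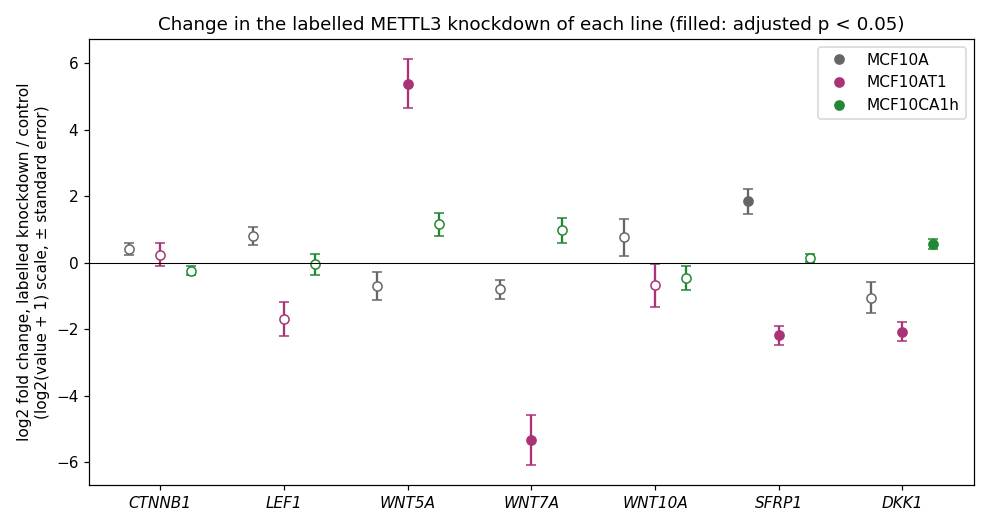
The log2 fold change of the labelled METTL3 knockdown against the negative control is plotted for the 7 tested genes in each line, with bars for the standard error and filled symbols for an adjusted p under 0.05. In MCF10AT1 WNT5A stands at 5.38 and WNT7A at -5.33, and SFRP1 stands at 1.85 in MCF10A and at -2.19 in MCF10AT1.

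Whether a gene responded differently in the lines was tested in 1 fit of the 18 libraries, as the difference between the log2 fold changes of a pair of lines. That fit used 1 shared spread per gene for all lines, although the spread differs between lines. With the shared spread, 32.4% of all tested genes were called between the arms of MCF10AT1 and 1.56% in MCF10CA1h. The fits of single lines called 13.0% and 12.8%. LEF1, which was called within no line alone, is among the genes called below. The 3 such differences share libraries, so they are not independent. Against MCF10A, the MCF10AT1 change differed for LEF1 by -2.50 ± 0.46 (adjusted p = 0.000948 from limma), WNT5A by 6.08 ± 0.75 (2.06e-05), WNT7A by -4.53 ± 0.63 (6.34e-05) and SFRP1 by -4.03 ± 0.45 (6.58e-06). These are 4 of 7 genes, where 21.6% of all tested genes differed. SFRP1 and LEF1 read above the controls in MCF10A and below them in MCF10AT1, while WNT7A read below them in both lines and by more in MCF10AT1. The difference for DKK1, -1.01 ± 0.51, missed the threshold (adjusted p = 0.171). It passed without control b (adjusted p = 0.0427) or knockdown library a (0.0377) of MCF10A.

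Between MCF10CA1h and MCF10AT1, 5 of 7 genes differed, where 18.2% of all tested genes did. The differences were 1.64 ± 0.46 for LEF1 (adjusted p = 0.0211 from limma), -4.23 ± 0.75 for WNT5A (0.000749), 6.31 ± 0.63 for WNT7A (2.08e-06), 2.32 ± 0.45 for SFRP1 (0.00149) and 2.64 ± 0.51 for DKK1 (0.00142). WNT7A and DKK1 were lower than the controls in MCF10AT1 and higher in MCF10CA1h. LEF1 lost this call without control b (adjusted p = 0.0599) or knockdown library b (0.0639) of MCF10CA1h. Between MCF10CA1h and MCF10A, SFRP1 was the 1 gene of 7 to differ, by -1.71 ± 0.45 (adjusted p = 0.0351), where 5.34% of all tested genes did. An unadjusted p under 0.05 from limma held for 4 of 7 in this pair, 4 in MCF10AT1 minus MCF10A and 5 in MCF10CA1h minus MCF10AT1. The share of all genes at that threshold was not counted, so nothing is read from these counts. That call of SFRP1 ended without any 1 of the 3 labelled knockdown libraries of MCF10A or any 1 of the 6 libraries of MCF10CA1h (adjusted p from 0.0566 to 0.102). DKK1, at 1.63 ± 0.51 and an adjusted p of 0.0760, passed without control a (0.0422) or knockdown library b (0.0252) of MCF10A, and with the replicate letter as a block (0.0418). CTNNB1 and WNT10A differed in no pair of lines by this test.

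**Figure D3:**
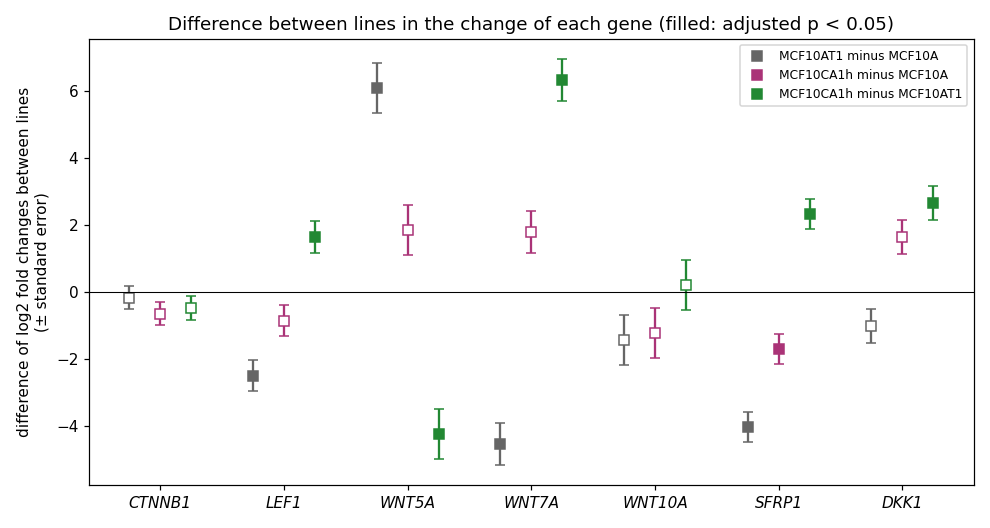
Differences between lines in the log2 fold change of each tested gene are plotted with bars for the standard error, and filled squares mark an adjusted p under 0.05. WNT5A and WNT7A lie on opposite sides of 0 in each comparison with MCF10AT1, while all CTNNB1 squares are open.

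The negative controls, titled WT, gave the levels of the 3 lines without the METTL3 edit, again with shared libraries, since each control group enters a pair of comparisons. Each control group is a single CRISPR line, so a difference between lines and one between clones cannot be told apart here either. WNT7A was highest in MCF10A (198 to 310), lower in MCF10AT1 (37.8 to 87.0) and lowest in MCF10CA1h (12.2 to 20.3), with no overlap between neighbours. Its log2 fold change was -2.03 ± 0.39 for MCF10AT1 against MCF10A (adjusted p = 0.00716 from limma), -3.81 ± 0.39 for MCF10CA1h against MCF10A (0.000202) and -1.79 ± 0.39 for MCF10CA1h against MCF10AT1 (0.0111), a call that ended without control b of MCF10CA1h (0.0516). WNT5A was close to 0 only in the MCF10AT1 controls, lower than in MCF10A by -4.41 ± 0.68 (adjusted p = 0.00308), while MCF10CA1h stood above MCF10AT1 by 4.65 ± 0.68 (0.00173). The MCF10A and MCF10CA1h controls overlapped in WNT5A (0.24 ± 0.68, adjusted p = 0.800).

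DKK1 was lowest in MCF10A (288 to 705), higher in MCF10AT1 (817 to 865) and highest in MCF10CA1h (1279 to 1841), and neighbouring groups did not overlap. It was higher in MCF10AT1 than in MCF10A by 1.06 ± 0.32 (adjusted p = 0.0375 from limma) and in MCF10CA1h by 1.94 ± 0.32 (0.00192), and the step from MCF10AT1 to MCF10CA1h missed the threshold (0.89 ± 0.32, adjusted p = 0.0772). The first of these calls ended without control a or c of MCF10A (adjusted p = 0.0872 and 0.132) or control a or b of MCF10AT1 (0.1003 and 0.0682). CTNNB1 was higher in MCF10CA1h than in MCF10A by 0.85 ± 0.29 (adjusted p = 0.0433) and than in MCF10AT1 by 1.14 ± 0.29 (0.0216). WNT10A (1.81 ± 0.61, 0.0423) and SFRP1 (1.07 ± 0.38, 0.0488) were also higher in MCF10CA1h than in MCF10A. Against MCF10A, the call of CTNNB1 ended without any 1 of the 6 libraries (adjusted p from 0.0716 to 0.121). That of WNT10A ended without any 1 of the MCF10CA1h controls or control a or c of MCF10A (0.0654 to 0.143), and that of SFRP1 without any 1 of the MCF10CA1h controls or control c of MCF10A (0.0899 to 0.130). Against MCF10AT1, the call of CTNNB1 ended without any 1 of the MCF10CA1h controls or control a of MCF10AT1 (0.0514 to 0.0775). In all, 3 of 7 genes were called between MCF10AT1 and MCF10A (28.1% of all tested genes), 5 between MCF10CA1h and MCF10A (37.8%) and 3 between MCF10CA1h and MCF10AT1 (21.8%). LEF1 was called in none of the 3 (log2 fold changes -0.12, -0.10 and 0.02, each ± 0.32).

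Ordered by mean over the 6 groups, SFRP1 was lowest in the labelled knockdown of MCF10AT1 (542 ± 132, mean and SD, n = 3) and highest in that of MCF10A (7473 ± 243), and both stood apart from their neighbours in the order. WNT7A ran from 0.643 ± 1.11 in the MCF10AT1 knockdown to 239 ± 62 in the MCF10A controls, and a single pair of neighbours overlapped, the MCF10CA1h knockdown and the MCF10AT1 controls. DKK1 ran from 203 ± 51.7 in the MCF10AT1 knockdown, which overlapped with the MCF10A knockdown, to 2316 ± 311 in the MCF10CA1h knockdown. For WNT5A only the lowest group, the MCF10AT1 controls, stood apart from its neighbour. CTNNB1, from 3879 ± 1522 to 8087 ± 417, overlapped with the next group at every step but that from the MCF10A controls to the MCF10A knockdown.

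The profiles of the 3 genes with the widest range of group means were compared with those of 12447 genes with a mean of at least 50, by the root mean square difference of the centred log2 values over the 18 libraries. The libraries of a group share a clone, so this describes likeness across 6 groups more than across 18 separate samples. For WNT7A, whose own profile had a root mean square of 2.43, the nearest were LRAT (0.642), FAM83A (0.729) and ITGB6 (0.738). For WNT5A, at 1.98, they were RFTN1 (0.833), ARHGAP31 (0.851) and C1S (0.928). For SFRP1, at 1.27, they were NREP (0.452), ZC4H2 (0.479) and PPARGC1B (0.554).

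The wider pathway was read from a list of 98 genes, of which 93 had values. The list holds members described above too, so its counts are not separate from theirs. In MCF10A 3 of the 65 tested genes were called, all higher, which is 4.6% against 2.65% of all tested genes. Beside SFRP1 these were APCDD1, an inhibitor that binds Wnt and LRP proteins (1.17, 3.07 and 0 against 49.5, 12.5 and 28.0, which passed the filter through the labelled knockdown alone; 3.71 ± 0.73, adjusted p = 0.0406 from limma), and LGR4, a receptor for R-spondins (264, 363 and 226 against 559, 693 and 851; 1.31 ± 0.24, adjusted p = 0.0347). With the letter as a block, 8 of the 65 were called in this line, where the share of all tested genes called rose to 7.60%.

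In MCF10AT1 17 of 67 tested genes were called, 25.4% against 13.0% of all, with 9 higher and 8 lower. The 17 include the members WNT5A, WNT7A, SFRP1 and DKK1. These shares are from the unpaired fit, and with the letter as a block that of all tested genes rose to 24.5%. With each library scaled to an equal sum, 5 pathway genes were called higher and 8 lower. Of the 10 tested ligand genes 6 were called, 3 in each direction, but 5 of the 6 passed the filter on low values through 1 arm alone. These were WNT5A, WNT6 and WNT3A through the labelled knockdown and WNT7A and WNT7B through the controls. Passing in this way favours a difference between arms, and 8 genes of the list did so here, 5 of them called. The share of called genes draws on these 5 too. WNT6 and WNT3A were listed at 0 in all MCF10AT1 controls and held 23.8, 32.3 and 57.4, and 18.2, 26.6 and 22.0, in the labelled knockdown. WNT7B, the close relative of WNT7A, fell by 4.51 ± 0.45 on the log2 scale (195, 186 and 201 against 5.65, 8.85 and 8.54; adjusted p = 0.000456 from limma). WNT9A fell by 3.52 ± 0.48 (175, 169 and 298 against 23.9, 18.7 and 10.98; adjusted p = 0.00220). Receptor genes were called higher in 4 of 13 tested and lower in none, with FZD7 at 1.91 ± 0.38 and FZD1 at 1.88 ± 0.38, both Frizzled receptors (adjusted p = 0.0124 and 0.0146). The tested antagonist genes were called lower in 3 of 5, namely the members SFRP1 and DKK1, already described, and KREMEN1. Among nuclear factors 2 of 16 were higher and 2 lower, and the latter included CTNNBIP1, which blocks the binding of beta-catenin to TCF proteins (-2.25 ± 0.39, adjusted p = 0.00657). Of the 18 tested genes of the destruction complex and Dishevelled none was called by limma, and 2 had an unadjusted p under 0.05.

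In MCF10CA1h 9 of 65 were called, 13.8% against 12.8% of all tested genes, with 5 higher and 4 lower, or 3 higher and 4 lower with equal sums. The 9 include the member DKK1. WNT9A rose here, by 1.51 ± 0.22 (99.0, 137 and 99.3 against 242, 384 and 340; adjusted p = 0.00192 from limma), where it had fallen in MCF10AT1. GSK3B, a kinase of the destruction complex, rose by 0.63 ± 0.11 (adjusted p = 0.00576) and PORCN, the acyltransferase that prepares Wnt ligands for secretion, by 0.58 ± 0.14 (0.0234). CSNK1D, a casein kinase, rose by 0.31 ± 0.08 (0.0354). SOSTDC1, a secreted antagonist, fell by 1.07 ± 0.31 (0.0462), FRAT2, a GSK3-binding protein, by 0.87 ± 0.13 (0.00231), AMER1, which binds APC, by 0.64 ± 0.17 (0.0367), and KREMEN1, a receptor for Dickkopf proteins, by 0.59 ± 0.17 (0.0459). A list of 18 known target genes of the pathway, which holds LEF1, AXIN2 and DKK1 too, had 1 of 11 tested genes called in MCF10A (APCDD1, higher, against 2.65% of all tested genes), 3 of 11 in MCF10AT1 (all lower, against 13.0%) and 4 of 10 in MCF10CA1h (2 in each direction, against 12.8%).

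**Figure D4:**
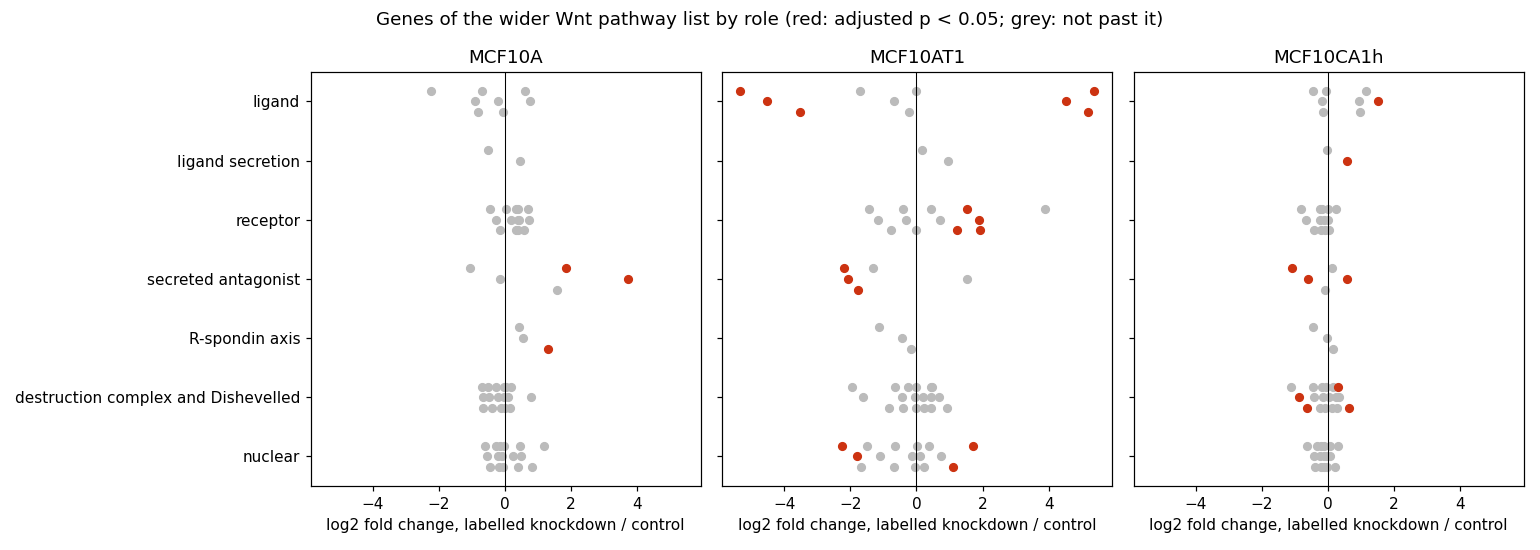
Each point is 1 tested gene of the Wnt pathway list, placed by its role and its log2 fold change in the labelled METTL3 knockdown of a line. Red points have an adjusted p under 0.05, and grey points do not. In MCF10AT1 the called ligand genes lie on both sides of 0 and the called antagonist genes below it, while no gene of the destruction complex is red in that line.

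The MCF10AT1 changes came with changes of cell type markers. Of 13 epithelial marker genes, all tested there, 9 were called lower and none higher, and their summed level went from 137359 to 284892 in the controls to 63538 to 139838 in the labelled knockdown. CDH1, the E-cadherin gene, held 2105 to 6138 in the controls and 11.6 to 79.2 in the knockdown, and EPCAM 3494 to 4291 against 78.8 to 126. ESRP1 was at 0 in at least 1 knockdown library and at most at 25.4. CDH1 and EPCAM, with KRT5, KRT14, KRT17, ESRP1, GRHL2, OVOL1 and RAB25, make up the 9, and ESRP1, OVOL1 and RAB25 passed the filter only through the controls. The other epithelial markers were not called in this line and stayed abundant in the case of the keratins KRT7 (33638 to 131010 against 37559 to 85650), KRT8 (14037 to 23432 against 9545 to 19882) and KRT18 (18503 to 48394 against 13608 to 28075). TP63 held 111 to 745 against 411 to 749. Of 12 mesenchymal markers 9 were tested and 5 called higher (VIM, FN1, COL3A1, THY1 and CDH2), of which the last 3 passed the filter through the labelled knockdown alone, with a summed level of 3787 to 5133 against 118393 to 207123. In MCF10A the epithelial sums were 199543 to 245879 against 276013 to 321129 and the mesenchymal ones 9981 to 16889 against 6617 to 12118. Of 13 epithelial markers tested there 1 was called, against 2.65% of all tested genes, and their median log2 fold change was -0.09. The called marker was KRT5, higher, at 98452 to 103400 against 181910 to 192670. KRT7, uncalled, read 21808 to 38191 against 16168 to 18550. Of 6 tested mesenchymal markers none was called, with a median of -0.765. In MCF10CA1h the epithelial sums were 408101 to 454065 against 558344 to 593809 and the mesenchymal ones 28088 to 33168 against 41312 to 52273. There 4 of 10 tested epithelial markers were called, all higher (KRT5, KRT7, KRT14 and KRT17), against 12.8% of all tested genes. Of 10 tested mesenchymal markers 3 were called, DCN and FN1 higher and COL3A1 lower. Of the markers of other cells, PTPRC (immune) reached 5.31, CD3E 1.69, CDH5 (endothelial) 5.96 and VWF 9.85 at most in any library. The endothelial marker PECAM1 held 15.9 to 849, with 196, 39.8 and 15.9 against 531, 510 and 332 in MCF10A (3.13 ± 0.77, adjusted p = 0.0772 from limma). Of the 3 endothelial markers tested in MCF10A none was called. Their median log2 fold change was -2.47, so the others went the other way from PECAM1. In MCF10CA1h PECAM1 was called lower, 1 of 2 endothelial markers tested. Both immune markers tested there were called, CD14 lower and CD68 higher. CD14 and CD68 held 44.9 to 2343 and 145 to 2006, with summed immune markers of 285 to 2965 and summed endothelial markers of 46 to 867. The part of these markers in the Wnt results was not tested. In bulk RNA, fewer cells that express a gene and less RNA per cell cannot be told apart.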

How the data were processed

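Bulk RNA was sequenced from both arms, negative CRISPR control and labelled METTL3 knockdown, of each of the 3 lines, with 3 libraries per group. Libraries were stranded and made after ribosomal RNA depletion per the extract protocol, while the labels name polyA RNA. The authors pseudo-aligned the paired reads to the hg38 transcriptome with Kallisto 0.46.1, used tximport to obtain gene values and scaled these by DESeq2 1.26.0, and the deposited values are these normalized counts, a signal and not whole reads. Between 15.3% and 38.9% of low values per library lay within 0.02 of a whole multiple of the most frequent low value, so whole reads could not be recovered, the read depth behind a value is unknown and counting intervals are not given. Normalized sums ran from 21347352 to 31681834.

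The log2 of the value plus 1 was fitted with limma 3.58.1 in R 4.3.3 (lmFit, eBayes with an intensity trend) wherever a gene averaged 10 or more across the fitted libraries, with two-sided Benjamini-Hochberg adjusted p-values over all of them. Each line was fitted alone, differences between lines in 1 fit of 18 libraries, and control lines in a fit of 9. Tables, promoter searches and figures used Python 3.11.15 with pandas 2.3.3, NumPy 2.4.6, SciPy 1.17.1 and matplotlib 3.10.9. Coordinates are those of GENCODE genes on hg38, and the annotation release of the values is not given in the sources used here.

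Replicate letters come from the titles. Over 15416 genes, the deviations of same-letter libraries correlated at 0.233, 0.227 and 0.130 in MCF10A. The main fits left the libraries unpaired in every line, and the letter entered only in the alternative with a replicate block. The members, gene lists and tests were chosen with earlier results of these data known. Named are all 10 genes, METTL3, per line and direction up to 5 called pathway genes with the largest change, and the 3 genes nearest in profile to the 3 members with the widest range. Marker and overlapping genes were named for their role. Alternatives were pseudocounts of 0.5 and 5, no filter or one at 50, no trend, median-of-ratios rescaling, equal sums, the replicate block, a joint fit and each library left out.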

Additional observations from a re-analysis of the deposited data

Results flagged for a closer look

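The change between the arms differed between lines for 10 combinations of a gene and a pair of lines, each tested as an interaction by limma in the fit of 18 libraries. That fit used a shared spread per gene, although the spread differs between lines. For MCF10AT1 minus MCF10A the difference of log2 fold changes was -2.50 for LEF1, 6.08 for WNT5A, -4.53 for WNT7A and -4.03 for SFRP1. For MCF10CA1h minus MCF10A it was -1.71 for SFRP1. For MCF10CA1h minus MCF10AT1 it was 1.64 for LEF1, -4.23 for WNT5A, 6.31 for WNT7A, 2.32 for SFRP1 and 2.64 for DKK1. The 3 pairs share libraries, and each line holds a single CRISPR line per arm, so a difference between lines and one between clones cannot be told apart.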

How the results depend on the processing

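Values of single genes kept their direction and their side of the threshold in 907 of 1005 alternatives, 64 lost a call, 13 gained one and 21 changed sign, none of them called in either setting. The cause of these changes was not tested beyond what each setting alters. Members called in MCF10A went from 1 to 0 with a mean of at least 50, without the intensity trend and with equal sums, and to 2 with the replicate block. In MCF10AT1 they went from 4 to 2 with a mean of at least 50, since WNT5A and WNT7A were then not tested. In MCF10CA1h they went from 1 to 0 without the trend, with equal sums and in the joint fit, and to 2 with the replicate block. Pathway genes called went from 3 to 1 (mean of at least 50), 0 (no trend), 8 (replicate block) and 5 (joint fit) in MCF10A. Of all genes, 2.48%, 1.54%, 7.60% and 3.84% were called there in the same order. In MCF10AT1 pathway genes called went from 17 to 29 (joint fit, where 32.4% of all genes were called). In MCF10CA1h they went from 9 to 5 (no filter), 4 (no trend) and 2 (joint fit). The shares of all genes called in that line were 5.14%, 7.42% and 1.56%. METTL3 in MCF10CA1h stayed at -0.49 but lost its call without the trend (adjusted p = 0.0742 from limma) and in the joint fit (0.501). For MCF10CA1h minus MCF10A the count went from 1 to 2 with a pseudocount of 5 (WNT7A added) or the replicate block (DKK1 added) and to 0 with no filter or no trend. For the controls of MCF10CA1h against MCF10A it went from 5 to 2 with no filter and to 3 without the trend, with equal sums or with the replicate block.

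With each library left out, members called ranged from 0 to 1 in MCF10A, 4 to 4 in MCF10AT1 and 0 to 2 in MCF10CA1h, and pathway genes from 0 to 7, 9 to 16 and 3 to 10. The METTL3 log2 fold change ranged from 0.11 to 0.63, -0.27 to -0.10 and -0.56 to -0.40. Members whose change differed between lines ranged from 4 to 5 (MCF10AT1 minus MCF10A), 0 to 2 (MCF10CA1h minus MCF10A) and 4 to 5 (MCF10CA1h minus MCF10AT1), and members called between controls from 2 to 4, 2 to 4 and 1 to 3 in the same order. Signs changed for CTNNB1 in MCF10AT1 (-0.10 to 0.51), LEF1 in MCF10CA1h (-0.30 to 0.13), CTNNB1 in MCF10AT1 minus MCF10A (-0.51 to 0.10) and WNT10A in MCF10CA1h minus MCF10AT1 (-0.36 to 0.66). Between controls they changed for CTNNB1 (-0.56 to 0.048) and SFRP1 (-0.30 to 0.48) in MCF10AT1 against MCF10A, LEF1 (-0.22 to 0.077) and WNT5A (-0.18 to 0.64) in MCF10CA1h against MCF10A, and LEF1 (-0.10 to 0.20) and WNT10A (-0.42 to 0.60) in MCF10CA1h against MCF10AT1, the last also at -0.0044 with a pseudocount of 5.

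Same-letter libraries correlated at 0.0974, 0.272 and 0.473 in MCF10AT1 and at -0.038, 0.019 and 0.037 in MCF10CA1h. Only the replicate block paired them, and with it 24.5% of all tested genes were called in MCF10AT1. The replicate block called WNT5A higher in MCF10CA1h (adjusted p = 0.0196 from limma). Equal sums moved the median of all genes in MCF10AT1 from 0.02 to -0.15, the share of higher calls in MCF10CA1h from 62.0% to 50.2% and that of MCF10AT1 minus MCF10A from 51.6% to 39.6%. The low values of AXIN2, WNT5B and DKK3 limit what can be read for them.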
